A study of Mus musculus with 12 samples.

Results

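The 10 genes described here encode small leucine-rich proteoglycans (SLRPs): Dcn, Bgn, Aspn, Fmod, Lum, Prelp, Kera, Omd, Epyc and Ogn. They were chosen by name, as the members of this protein family that are best known in connective tissue, and are 10 of the 49585 genes in the count files. All 10 passed the expression filter, which left 18648 genes to be tested.

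SLRPs are secreted proteins of the extracellular matrix, built around repeats rich in leucine that form a curved surface. Many of them bind collagen fibrils and influence their spacing and width, and several also bind growth factors of the TGF-β family. Some carry chains of chondroitin, dermatan or keratan sulphate, which makes them proteoglycans in the strict sense, and others carry none. In the skeleton they are known from bone matrix, cartilage, tendon and periosteum. The members fall into class I (Dcn, Bgn and Aspn), class II (Fmod, Lum, Prelp, Kera and Omd) and class III (Epyc and Ogn).

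Bulk RNA-seq libraries were made from 4 populations of non-haematopoietic, non-endothelial (CD45-Ter119-CD31-) cells sorted from the bones of male wild-type C57BL/6 mice aged 8 to 10 weeks at steady state. One population, the Itga8+ MSCs, was Alcam+ and Sca-1-, and another was Alcam+ without Itga8. The latter are named Itga8- BLCs here, for bone-lining cells, although the protocol speaks of osteoblasts. Those sorted as Sca-1+ or as CD51+CD140a+ make up the others. By the methods of the study, bone-lining cells were freed with collagenase from bone fragments after the marrow had been flushed out, whereas CD51+CD140a+ MSCs came from the flushed marrow, digested with Accumax. Population, tissue and digestion therefore cannot be told apart in any comparison with CD51+CD140a+ MSCs. Each population had 3 libraries of 2000 cells. The labels do not say whether the 3 came from separate mice, so p-values measure the spread between these libraries, which may be technical. In bulk RNA, fewer cells that express a gene and less RNA per cell cannot be told apart.

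Total counts ranged from 17580677 to 31332475 per library, so that 3 counts, the level treated as the floor, corresponded to 0.082 to 0.18 CPM, counts scaled to the library size. Floors and counts cover counting error only, since copies made by PCR cannot be recognised. The osteoblast markers (Bglap, Sp7 and 8 others) summed to between 8121 and 20765 CPM in Itga8- BLCs. The sums in CD51+CD140a+ MSCs overlapped with these, at 7358 to 16475 CPM, of which Ibsp alone was 6819, 16048 and 7486 CPM. Itga8+ MSCs had 484 to 1010 CPM and Sca-1+ MSCs 499 to 741 CPM. The 12 cartilage markers summed to between 19905 and 89734 CPM in Itga8- BLCs. Cartilage markers were also high in Itga8+ MSCs, at 18534 to 134460 CPM, against 9345 to 9920 CPM in Sca-1+ MSCs and 615 to 1613 CPM in CD51+CD140a+ MSCs. Most of the sum in Sca-1+ MSCs was Comp, at 7655, 8527 and 7773 CPM. Myeloid and lymphoid markers summed to 2299 to 11831 CPM in the Alcam+ populations and to 870 to 1714 CPM in the others. Itga8+ replicate 2 and Itga8- replicate 3 stood apart from the other libraries of their populations, with Col2a1, the main cartilage collagen, at 7596 CPM against a mean of 82844 CPM and at 5269 CPM against 48721 CPM. For the 10 genes, values without these libraries are given below where leaving one out changed a call or moved a called value by over 1.5 times, and for the gene lists the counts without both are given at the end.

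The genes lie in 3 chromosomal groups and a single position. On GRCm38 (mm10), Prelp (1:133910304-133921414, minus strand) and Fmod (1:134037254-134048277, plus strand) are 115.8 kb apart on chromosome 1. Dcn (10:97479609-97518143), Lum (10:97565128-97572703), Kera (10:97606879-97613692) and Epyc (10:97644068-97682454) follow each other on the plus strand of chromosome 10, with gaps of 47.0, 34.2 and 30.4 kb. Aspn (13:49544443-49567565), Omd (13:49582462-49592822) and Ogn (13:49608046-49624501) follow each other on the plus strand of chromosome 13, with gaps of 14.9 and 15.2 kb. In GENCODE M21 no protein-coding gene lies wholly within any of these gaps, but Cenpp, on the minus strand, spans Aspn, Omd and Ogn. Bgn (X:73483602-73495933, plus strand) is on the X chromosome.

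The promoters of Aspn, Omd and Ogn are shown because these neighbours differed between the same populations in different ways. They are the 250 bases before the RefSeq start of each gene on GRCm38.p6, plus strand, at chr13:49544193-49544442, chr13:49582212-49582461 and chr13:49607765-49608014. Capitals mark CANNTG, the letters of the E-box bound by basic helix-loop-helix factors, and TATAAA, the letters of the TATA box. Both strands were searched, so that TTTATA is TATAAA read on the other strand. Whether any match acts as an E-box or a TATA box was not tested.
Aspn: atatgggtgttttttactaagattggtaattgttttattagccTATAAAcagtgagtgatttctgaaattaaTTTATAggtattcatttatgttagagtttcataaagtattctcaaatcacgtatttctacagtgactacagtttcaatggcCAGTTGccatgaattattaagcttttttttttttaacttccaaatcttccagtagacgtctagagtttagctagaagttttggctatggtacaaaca
Omd: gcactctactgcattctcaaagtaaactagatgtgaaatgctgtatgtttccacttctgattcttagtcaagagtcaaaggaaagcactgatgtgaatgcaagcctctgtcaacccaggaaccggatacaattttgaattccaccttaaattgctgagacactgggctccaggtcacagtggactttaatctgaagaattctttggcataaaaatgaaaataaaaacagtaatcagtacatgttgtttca
Ogn: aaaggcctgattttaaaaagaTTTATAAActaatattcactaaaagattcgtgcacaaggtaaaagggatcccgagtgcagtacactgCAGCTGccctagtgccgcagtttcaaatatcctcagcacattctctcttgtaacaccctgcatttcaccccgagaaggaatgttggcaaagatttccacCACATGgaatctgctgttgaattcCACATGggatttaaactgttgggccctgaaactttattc
Aspn held 1 E-box and 2 matches of TATAAA, at positions -207 and -178 counted from the start. Ogn held 3 E-boxes and 2 matches of TATAAA, at -229 and -227, that overlap each other in TTTATAAA. Omd held no match of either motif. Across 32851 promoter windows of the same length, 66.2% held an E-box and 12.4% held TATAAA, so that an E-box match is common. Of the 10 genes, 8 had promoters in the RefSeq table used, and Dcn and Lum were not analysed for motifs. The promoter of Bgn held 3 matches of the GC box GGGCGG (either strand), which was present in 32.7% of windows.

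Summed over the 10 genes, SLRP transcripts were most abundant in Sca-1+ MSCs and least abundant in CD51+CD140a+ MSCs. On the scale per transcript length, in TPM, which scales reads to exon length and library, the 10 genes summed to 34899, 35641 and 42721 in Sca-1+ MSCs, to 18327, 13870 and 23185 in Itga8+ MSCs, to 12921, 15621 and 15052 in Itga8- BLCs and to 4380, 4009 and 4353 in CD51+CD140a+ MSCs. The libraries of Sca-1+ MSCs were all above, and those of CD51+CD140a+ MSCs all below, those of the Alcam+ populations, which overlapped each other. As a share of all counts, the 10 genes took 4.51% ± 0.626 in Sca-1+ MSCs, 2.104% ± 0.108 in Itga8+ MSCs, 1.66% ± 0.421 in Itga8- BLCs and 0.474% ± 0.00844 in CD51+CD140a+ MSCs (SD, n = 3). Of the sums, Dcn alone was 16305, 15268 and 19015 TPM in Sca-1+ MSCs and 1063, 4115 and 1576 TPM in Itga8+ MSCs. Chad, an SLRP gene outside the 10, is not in them and had a mean of 9624 CPM in Itga8+ MSCs and 6591 CPM in Sca-1+ MSCs.

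The populations also differed in which of the 10 genes led. Fmod made up 49.5% ± 16.99 of the summed TPM in Itga8+ MSCs (SD, n = 3), ahead of Dcn at 14.1% ± 13.5 and Prelp at 12.9% ± 5.99. The share of Dcn rested on replicate 2, where Fmod (29.98%) and Dcn (29.7%) were level, and without that library the means were 59.3% for Fmod, 16.2% for Prelp and 6.30% for Dcn. In Itga8- BLCs, Fmod at 29.3% ± 11.95, Lum at 25.1% ± 10.3 and Dcn at 18.7% ± 9.13 were within their spread of each other, while without replicate 3 the means were 36.2%, 19.3% and 13.5%. Dcn made up 44.7% ± 1.95 in Sca-1+ MSCs, followed by Prelp at 20.05% ± 0.971 and Fmod at 15.4% ± 1.33. In CD51+CD140a+ MSCs, Prelp led with 39.7% ± 2.41, followed by Bgn at 20.4% ± 2.83 and Ogn at 17.1% ± 1.34, while Fmod made up 2.03% ± 0.286.

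**Figure D1:**
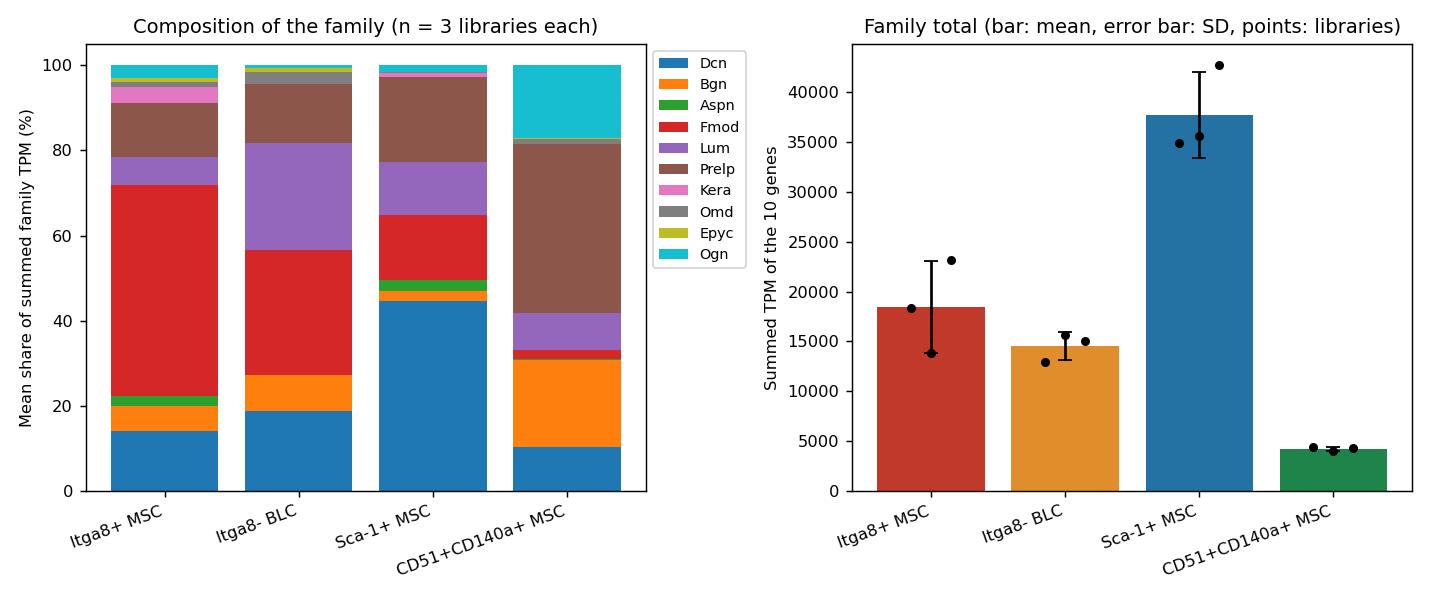
The left panel shows the mean share of each of the 10 genes in their summed TPM (%) for the 4 populations, and the right panel the summed TPM, with bars for means, error bars for the SD and points for the 3 libraries. Dcn is the largest share in Sca-1+ MSCs (44.7%) and Fmod in Itga8+ MSCs (49.5%), and the total runs from 4247 TPM in CD51+CD140a+ MSCs to 37754 TPM in Sca-1+ MSCs.

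The levels of each gene follow in CPM, by class. A gene was called when its FDR was under 0.1 and its fold above 2 in edgeR's quasi-likelihood test, the thresholds of the study, over all 18648 genes. In every called comparison of the 10 genes the 3 libraries of one population were all above the 3 of the other, for which a two-sided exact permutation test gives p = 0.1, the smallest it can give with 3 against 3.

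Dcn encodes decorin, the best known of the class, which binds type I collagen fibrils and TGF-β. Dcn was counted at 25078, 23946 and 30504 CPM in the libraries of Sca-1+ MSCs, 2894, 3928 and 11320.5 CPM in Itga8- BLCs, 1613, 9675 and 2460.1 CPM in Itga8+ MSCs and 598, 738 and 567 CPM in CD51+CD140a+ MSCs. Each library of Sca-1+ MSCs was above, and each of CD51+CD140a+ MSCs below, all others, while the Alcam+ populations overlapped. The mean was 26509 ± 3506 CPM in Sca-1+ MSCs and 634 ± 90.9 CPM in CD51+CD140a+ MSCs (SD, n = 3), a fitted fold of 41.8 (log2 5.39 ± 0.748 SE, edgeR FDR = 0.000302). In both Alcam+ populations the library that was low in Col2a1 had the highest Dcn. Without Itga8+ replicate 2 the log2 fold change of Itga8+ MSCs against Sca-1+ MSCs went from -2.53 to -3.72 and that against CD51+CD140a+ MSCs from 2.85 to 1.71, all past the thresholds.

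Bgn encodes biglycan, a relative of decorin that is abundant in bone matrix. Its levels were 2177, 1508 and 2109 CPM in Itga8+ MSCs, 2071, 2336 and 3399 CPM in Itga8- BLCs, 1296, 1577 and 1484 CPM in Sca-1+ MSCs and 1268, 1099.5 and 1588 CPM in CD51+CD140a+ MSCs. Bgn was called in 0 of the 6 comparisons by edgeR, and in 2 of them its unadjusted p was under 0.05. DESeq2 and limma-trend also called it in 0. It was called for Itga8- BLCs against CD51+CD140a+ MSCs without Itga8- replicate 1 (log2 1.11), Itga8- replicate 2 (1.04) or CD51+CD140a+ replicate 3 (1.14). The widest difference was between Itga8- BLCs and CD51+CD140a+ MSCs, with a fitted fold of 1.97 (log2 0.98 ± 0.278 SE, edgeR FDR = 0.0198), which passed the FDR but not the fold, and whose libraries did not overlap. The same held for Itga8- BLCs against Sca-1+ MSCs, at log2 0.84 ± 0.277 (SE, edgeR FDR = 0.0497).

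Aspn encodes asporin, a class I protein without a glycosaminoglycan chain that binds collagen. Its libraries formed a high and a low set. Sca-1+ MSCs had 633, 499.9 and 634 CPM and Itga8+ MSCs 107, 518 and 334 CPM, whereas Itga8- BLCs had 5.73, 10.1 and 11.5 CPM and CD51+CD140a+ MSCs 13.5, 3.58 and 4.19 CPM. Every library of the first pair of populations was above every library of the second, and within each pair the libraries overlapped. The fitted fold of Itga8+ MSCs over Itga8- BLCs was 35.1 (log2 5.13 ± 0.686 SE, edgeR FDR = 0.00182) and that of Sca-1+ MSCs over CD51+CD140a+ MSCs was 82.9 (log2 6.37 ± 0.726 SE, edgeR FDR = 7.37e-05). Without CD51+CD140a+ replicate 1 that log2 fold change was 7.24, and that of Itga8+ MSCs over CD51+CD140a+ MSCs went from 5.49 to 6.36.

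Fmod encodes fibromodulin, a keratan sulphate proteoglycan of tendon and cartilage that binds collagen fibrils. Fmod had 9102, 5538 and 12462 CPM in Itga8+ MSCs, 4222, 5013 and 6376 CPM in Sca-1+ MSCs, 4547, 5796 and 3407 CPM in Itga8- BLCs and 67.7, 59.7 and 86.5 CPM in CD51+CD140a+ MSCs. The first 3 populations overlapped, and all their libraries were far above those of CD51+CD140a+ MSCs. The fitted fold over CD51+CD140a+ MSCs was 127 in Itga8+ MSCs (log2 6.98 ± 0.435 SE, edgeR FDR = 1.22e-06), 73.0 in Sca-1+ MSCs (edgeR FDR = 2.2e-06) and 64.3 in Itga8- BLCs (edgeR FDR = 2.1e-06). In both Alcam+ populations the library low in Col2a1 had the lowest Fmod, the opposite order to Dcn. Itga8+ MSCs and Itga8- BLCs differed by log2 0.98 ± 0.338 (SE, edgeR FDR = 0.213), and the difference was past the thresholds without Itga8+ replicate 2 (1.26) and when libraries were scaled by their totals alone (1.24).

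Lum encodes lumican, a keratan sulphate proteoglycan needed for the clarity of the cornea and present in many collagenous tissues. Lum had 2001, 2026 and 5987 CPM in Itga8- BLCs, 2719, 3007 and 3419 CPM in Sca-1+ MSCs, 704, 1366 and 537 CPM in Itga8+ MSCs and 233, 238 and 206 CPM in CD51+CD140a+ MSCs. Itga8- BLCs and Sca-1+ MSCs overlapped, Itga8+ MSCs lay below both and CD51+CD140a+ MSCs lowest. Sca-1+ MSCs exceeded Itga8+ MSCs by a fitted fold of 3.51 (log2 fold change of Itga8+ over Sca-1+ -1.81 ± 0.459 SE, edgeR FDR = 0.0205), and Itga8+ MSCs exceeded CD51+CD140a+ MSCs by 3.85 (log2 1.95 ± 0.461 SE, edgeR FDR = 0.0082).

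Prelp encodes a class II protein whose basic end binds heparan sulphate. Prelp had 6381, 7306 and 8419.6 CPM in Sca-1+ MSCs, 3059, 1249.7 and 3279 CPM in Itga8+ MSCs, 2488, 3345 and 1039 CPM in Itga8- BLCs and 1358, 1575 and 1621 CPM in CD51+CD140a+ MSCs. Sca-1+ MSCs were above all other libraries and the other 3 populations overlapped. The fitted fold of Sca-1+ MSCs was 4.85 over CD51+CD140a+ MSCs (log2 2.28 ± 0.446 SE, edgeR FDR = 0.00337) and 3.22 over Itga8- BLCs (edgeR FDR = 0.018). Prelp followed Fmod in that the library low in Col2a1 was the lowest of each Alcam+ population. Of its exon length, 9.68% lies opposite the antisense gene Gm15851, and reads of the pair cannot be told apart if strand was not used in counting, which the sources used here do not state.

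Kera encodes keratocan, best known from the cornea, where it carries keratan sulphate. Kera had 134, 898 and 382 CPM in Itga8+ MSCs, 148, 186 and 298 CPM in Sca-1+ MSCs and 17.1, 19.97 and 18.2 CPM in Itga8- BLCs, and 0, 0 and 2 counts in CD51+CD140a+ MSCs. The first pair overlapped, Itga8- BLCs lay below both, and CD51+CD140a+ MSCs were at the floor. Against the level of 3 counts, Kera was at least 5344-fold higher in Itga8+ MSCs, at least 2391-fold higher in Sca-1+ MSCs and at least 209-fold higher in Itga8- BLCs than in CD51+CD140a+ MSCs. Without Itga8+ replicate 2 the first of these bounds was 2923-fold. Itga8+ MSCs exceeded Itga8- BLCs by a fitted fold of 25.6 (log2 4.68 ± 0.682 SE, edgeR FDR = 0.00291), or by log2 3.83 without Itga8+ replicate 2. The study picked Kera from these libraries, so its level in Itga8+ MSCs is not independent evidence.

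Omd encodes osteomodulin (osteoadherin), a keratan sulphate proteoglycan of mineralised matrix that binds hydroxyapatite. Omd had 155, 220.2 and 590.2 CPM in Itga8- BLCs, 65.6, 349 and 62.3 CPM in Itga8+ MSCs, 63.6, 58.0 and 58.5 CPM in Sca-1+ MSCs and 38.6, 29.3 and 26.0 CPM in CD51+CD140a+ MSCs. Itga8- BLCs were above the last pair without overlap, while Itga8+ MSCs overlapped with Itga8- BLCs and Sca-1+ MSCs. The fitted fold of Itga8- BLCs was 5.36 over Sca-1+ MSCs (log2 2.42 ± 0.669 SE, edgeR FDR = 0.0239) and 10.3 over CD51+CD140a+ MSCs (log2 3.36 ± 0.696 SE, edgeR FDR = 0.0036). Without Itga8- replicate 3 these log2 fold changes were 1.64 and 2.58, still past the thresholds. Between Itga8+ MSCs and Itga8- BLCs the log2 fold change was -1.02 ± 0.641 (SE, edgeR FDR = 0.617) and was not called. It went to -2.30 without Itga8+ replicate 2 (edgeR FDR = 0.029), to -0.27 without Itga8- replicate 3 (edgeR FDR = 0.912) and to -1.52 without both (edgeR FDR = 0.0116), and was thus called in the first and the last of these fits.

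Epyc encodes epiphycan, a class III proteoglycan first known from growth-plate cartilage. Epyc had 143, 127 and 167 CPM in Itga8- BLCs, 75.1, 198 and 68.6 CPM in Itga8+ MSCs, 32.3, 30.7 and 46.2 CPM in Sca-1+ MSCs and 1.34, 4.24 and 5.86 CPM in CD51+CD140a+ MSCs. The Alcam+ populations overlapped and were above the others, and Sca-1+ MSCs were above CD51+CD140a+ MSCs. The fitted fold over CD51+CD140a+ MSCs was 38.2 in Itga8- BLCs (log2 5.25 ± 0.605 SE, edgeR FDR = 6.93e-05), 29.8 in Itga8+ MSCs (edgeR FDR = 9.93e-05) and 9.53 in Sca-1+ MSCs (edgeR FDR = 0.0013). Without Itga8+ replicate 2 the log2 fold change of Itga8+ over CD51+CD140a+ MSCs went from 4.90 to 4.26. Epyc was highest in that library of its population, where the sum of cartilage markers was lowest. Of its exon length, 40.6% lies opposite Gm10754, which had at most 8 counts in a library.

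Ogn encodes osteoglycin (mimecan), a class III protein of bone and other connective tissue. Ogn had 471, 414 and 506 CPM in CD51+CD140a+ MSCs, 207, 659 and 443 CPM in Itga8+ MSCs, 407, 300.4 and 441 CPM in Sca-1+ MSCs and 53.2, 77.4 and 75.4 CPM in Itga8- BLCs. The first 3 populations overlapped and all their libraries were above those of Itga8- BLCs. The fitted fold over Itga8- BLCs was 6.36 in Itga8+ MSCs (log2 2.67 ± 0.39 SE, edgeR FDR = 0.00291), 5.58 in Sca-1+ MSCs (edgeR FDR = 0.00103) and 6.75 in CD51+CD140a+ MSCs (edgeR FDR = 0.000299). Ogn was the only 1 of the 10 genes that was called lower in Itga8- BLCs than in CD51+CD140a+ MSCs.

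**Figure D2:**
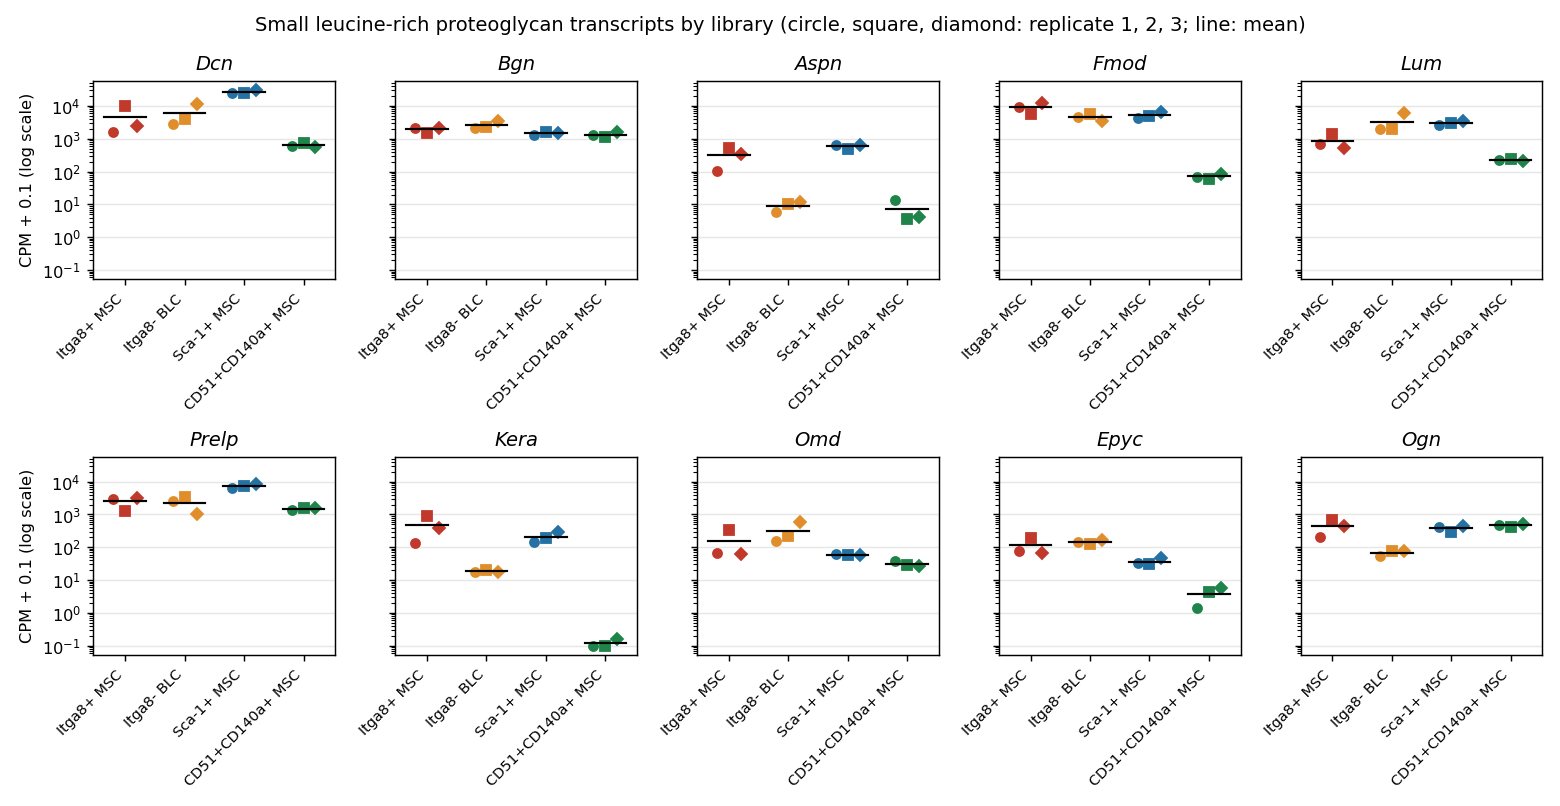
Each panel shows 1 gene, with CPM + 0.1 on a log axis for the 3 libraries of each population (circle, square and diamond for replicates 1, 2 and 3) and a line at the mean. Fmod and Kera are lowest in CD51+CD140a+ MSCs, Ogn is lowest in Itga8- BLCs, Aspn is low in both of these populations, and the 12 libraries lie closest together for Bgn, between 1099.5 and 3399 CPM.

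Itga8+ MSCs and Itga8- BLCs, which share Alcam and differ by the sort on Itga8, differed in 4 of the 10 genes, whose libraries did not overlap. Aspn, Kera and Ogn were higher in Itga8+ MSCs by fitted folds of 35.1, 25.6 and 6.36, and Lum was lower by a fitted fold of 3.84. Over all genes tested, 3.82% were called in this comparison, 1.66% higher and 2.16% lower, and 14.2% had libraries that did not overlap. The median log2 fold change was -0.11 over the 10 genes and 0.08 over all genes. Dcn, Bgn, Omd and Epyc had negative values that were not called, and Fmod and Prelp positive ones. The call of Lum (log2 -1.94 ± 0.461 SE, edgeR FDR = 0.0485) was lost in a fit of these populations alone, under a block for replicate number, without Itga8- replicate 3 (-1.22) and without Itga8+ replicate 1 or 3 (-1.81 and -1.69). Tendon markers were higher in Itga8+ MSCs for 5 of 6 genes tested, with a sum of 6980 to 21567 CPM against 625 to 1691 CPM, and osteoblast markers were lower for 9 of 10. Their part in the SLRP differences was not tested.

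Against Sca-1+ MSCs, Itga8+ MSCs had lower Dcn, Lum and Prelp, by fitted folds of 5.78, 3.51 and 2.91, and higher Epyc, by 3.13. These are 4 of the 10 genes, and their libraries did not overlap, while 21.7% of all genes tested were called, 12.9% higher and 8.89% lower, and 37.6% did not overlap. Aspn, Fmod, Bgn, Kera, Omd and Ogn had log2 fold changes between -0.88 and 1.40 that were not called. Of these, Fmod was called without Itga8+ replicate 2 (1.03), Kera without Itga8+ replicate 1 (edgeR FDR = 0.0683), and Omd with DESeq2 (1.43) or without Itga8+ replicate 3 (1.72). The call of Epyc (log2 1.65 ± 0.517 SE, edgeR FDR = 0.0511) was lost without Itga8+ replicate 2 (0.96), without Sca-1+ replicate 1 or 2 (1.57 and 1.54), without Itga8+ replicate 2 and Itga8- replicate 3 together (1.01) and at an FDR under 0.05. That of Prelp (log2 -1.54 ± 0.435 SE, edgeR FDR = 0.033) was lost without Sca-1+ replicate 3 (-1.44). Adventitial fibroblast markers were lower in Itga8+ MSCs for 6 of 6 genes, with sums of 83.1 to 132 CPM against 2600.2 to 3117 CPM, cartilage markers were higher for 10 of 12, and myeloid and lymphoid markers for 6 of 8 tested. Osteoblast markers were higher for 5 of 10 (1 was lower), skeletal muscle markers for 4 of 7 tested and tendon markers for 2 of 6 (Scx and Tnmd), and LepR+ stroma markers were lower for 3 of 8 (1 was higher). Their part in the SLRP values was not tested.

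Itga8+ MSCs had more SLRP transcripts than CD51+CD140a+ MSCs in 7 of the 10 genes. Dcn, Aspn, Fmod, Lum, Kera, Omd and Epyc made up the 7, without overlap of libraries, where 35.6% of all genes tested were called, 21.2% higher and 14.3% lower, and 44.4% did not overlap. The fitted fold ran from 3.85 for Lum to 127 for Fmod, leaving out Kera at the floor. Bgn, Prelp and Ogn were not called, at log2 0.55 ± 0.276, 0.74 ± 0.428 and -0.09 ± 0.366 (SE), and Prelp was called without Itga8+ replicate 2 (1.09). The call of Omd (log2 2.34 ± 0.667 SE, edgeR FDR = 0.0209) was lost without Itga8+ replicate 2 (1.06). The median was 2.6 on the log2 scale over the 10 genes and 0.18 over all genes. Cartilage markers were called higher in Itga8+ MSCs for 10 of 12 genes, tendon markers for 5 of 6 (Tnc was lower), adventitial fibroblast markers for 6 of 6, myeloid and lymphoid markers for 6 of 8 tested and skeletal muscle markers for 5 of 7 tested. LepR+ stroma markers were lower for 8 of 8 and osteoblast markers for 5 of 10. The tendon markers summed to 6980 to 21567 CPM against 8849 to 9935 CPM, but the sum in CD51+CD140a+ MSCs was nearly all Tnc, at 8981, 8824 and 9906 CPM. There Tnmd, Thbs4, Cilp and Scx had means of 0.052, 0.225, 1.55 and 0.011 CPM, with Scx at the floor. The adventitial sums were 83.1 to 132 CPM against 8.79 to 19.5 CPM. The part of these transcripts in the SLRP differences was not tested.

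Each of the remaining pairs had 7 of the 10 genes called. In Itga8- BLCs against Sca-1+ MSCs, Omd and Epyc were higher and Dcn, Aspn, Prelp, Kera and Ogn lower, with 26.4% of all genes called (14.5% higher and 11.9% lower). Libraries did not overlap for 8 of the 10 genes and 45.7% of all genes. Aspn had the largest size among them, at log2 -6.02 ± 0.715 (SE, edgeR FDR = 0.000183). The call of Dcn (log2 -2.13 ± 0.646 SE, edgeR FDR = 0.0359) was lost without Itga8- replicate 1 (-1.85) and went to -2.96 without Itga8- replicate 3. In Itga8- BLCs against CD51+CD140a+ MSCs, Dcn, Fmod, Lum, Kera, Omd and Epyc were higher and Ogn lower, with 35.3% of all genes called (20.4% higher and 14.9% lower), and 8 of the 10 genes and 49.8% of all genes did not overlap. Without Itga8- replicate 3 the log2 fold change in that comparison went from 3.25 to 2.42 for Dcn and from 3.89 to 3.16 for Lum. In Sca-1+ MSCs against CD51+CD140a+ MSCs, Dcn, Aspn, Fmod, Lum, Prelp, Kera and Epyc were higher, with 20.5% of all genes called (11.2% higher and 9.3% lower), and again 8 of the 10 genes did not overlap, against 45.9% of all genes. These comparisons share libraries with those above, so they are not separate evidence. Markers moved in them too. Osteoblast markers were called higher in Itga8- BLCs than in Sca-1+ MSCs for 9 of 10 genes, cartilage markers for 10 of 12 and myeloid and lymphoid markers for 6 of 8 tested, and adventitial fibroblast markers were lower for 6 of 6, LepR+ stroma markers for 5 of 8 (2 were higher) and tendon markers for 3 of 6. Relative to CD51+CD140a+ MSCs, Itga8- BLCs had 12 of 12 cartilage markers, 7 of 8 myeloid and lymphoid markers tested and 6 of 10 osteoblast markers (1 was lower) higher, and 7 of 8 LepR+ stroma markers lower. In the same comparison 5 of 6 adventitial fibroblast markers and 3 of 7 skeletal muscle markers tested were higher, as were 4 of 6 tendon markers (2 were lower). Sca-1+ MSCs had 6 of 6 adventitial fibroblast markers higher than CD51+CD140a+ MSCs, and 8 of 8 LepR+ stroma and 8 of 10 osteoblast markers lower. Tendon markers were higher in Sca-1+ MSCs for 4 of 6 genes (Cilp, Thbs4, Tnmd and Scx, while Tnc was lower) and cartilage markers for 5 of 12, Comp among them. Their part in the SLRP differences was not tested.

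**Figure D3:**
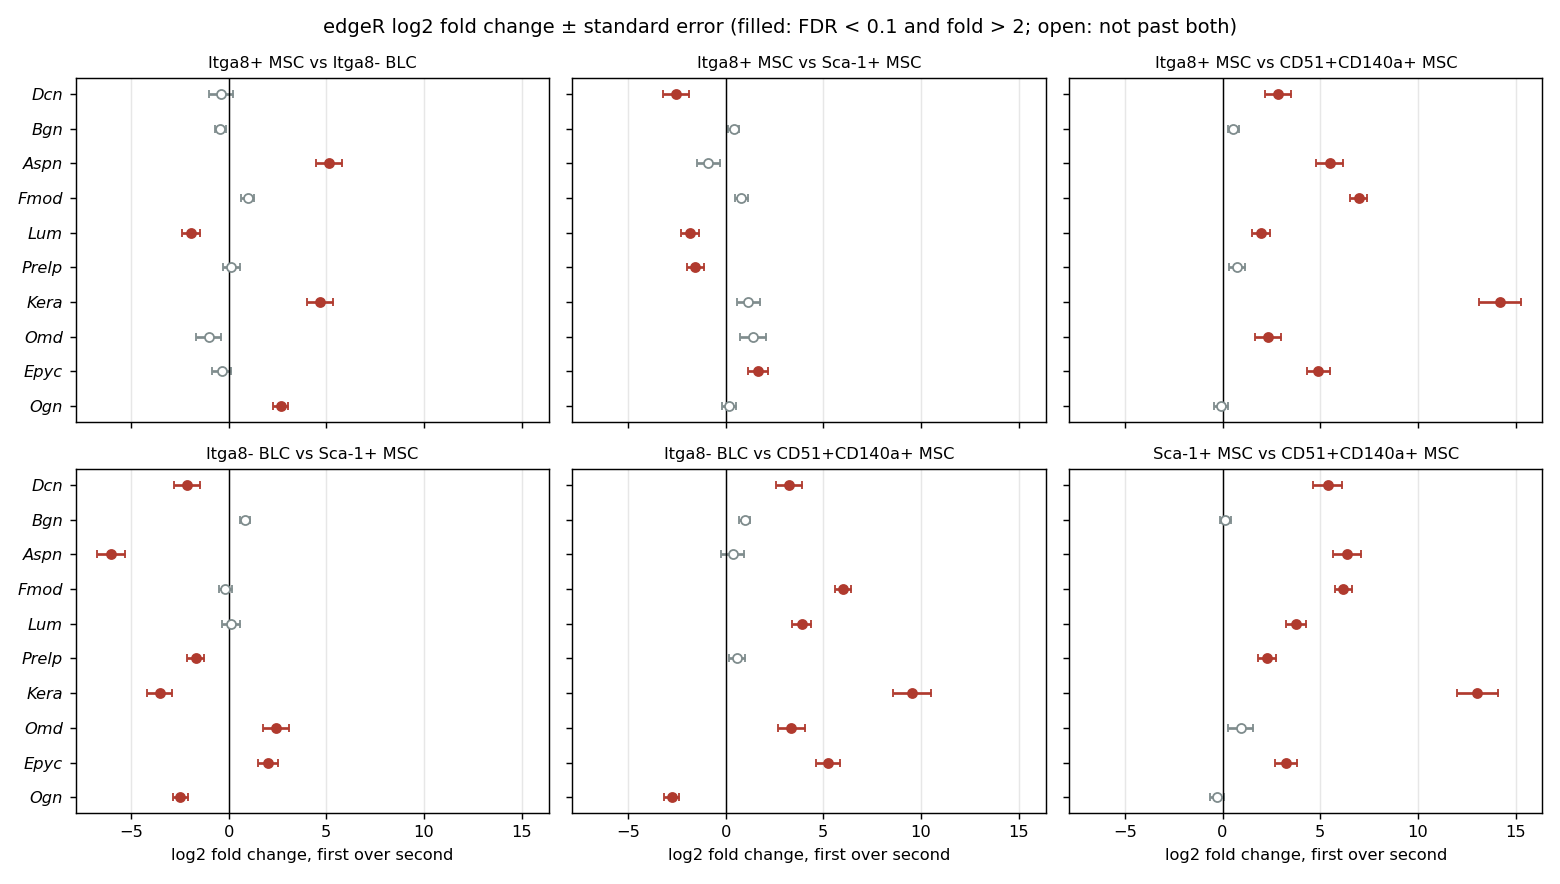
Each panel shows 1 pair of populations, with the edgeR log2 fold change of the first over the second on the x axis, the standard error as a bar, and filled points for called genes. Bgn is open in all 6 panels, Dcn, Fmod, Lum and Epyc are filled in every comparison with CD51+CD140a+ MSCs, and the points of Kera against CD51+CD140a+ MSCs are fitted values of a gene at the floor.

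Neighbouring genes did not share 1 order of populations. On chromosome 13, Aspn was high in the Itga8+ and the Sca-1+ populations, Omd was highest in Itga8- BLCs and Ogn was low there alone. In Itga8- BLCs the mean level per length was 11.1 ± 2.99 TPM for Aspn, 383 ± 190.2 TPM for Omd and 78.4 ± 18.1 TPM for Ogn, and in CD51+CD140a+ MSCs it was 12.6 ± 10.7, 56.5 ± 15.9 and 727 ± 90.3 TPM (SD, n = 3). Omd thus led in the first population and Ogn in the second, with no overlap of libraries between the genes in either. The promoters shown above belong to these genes. On chromosome 10, Sca-1+ MSCs had mean levels of 16863 TPM for Dcn, 4624 TPM for Lum, 342 TPM for Kera and 52.7 TPM for Epyc, falling in the order of the genes. In Itga8- BLCs, Lum at 3667 TPM was above Dcn at 2756 TPM within every library, although their ranges over libraries overlapped, and Epyc at 166 TPM was above Kera at 24.0 TPM in every library.

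**Figure D4:**
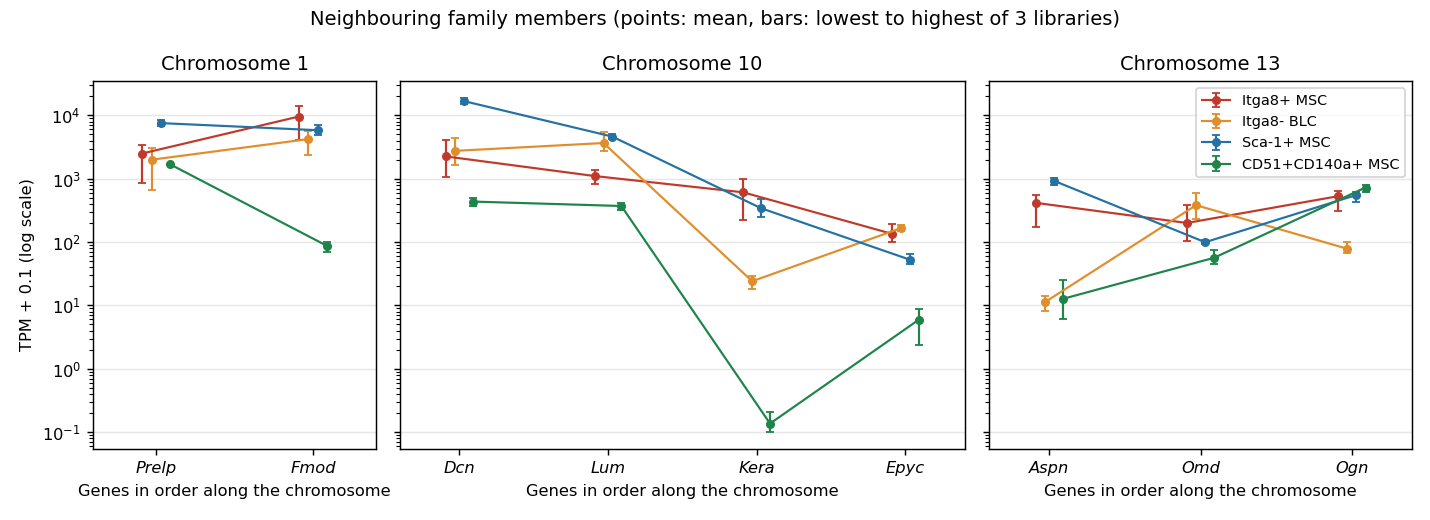
Mean TPM + 0.1 on a log axis for family members in their order along chromosomes 1, 10 and 13, with bars from the lowest to the highest of 3 libraries and lines that only join the points of 1 population. In Itga8- BLCs the middle gene of chromosome 13, Omd (383 TPM), is above both its neighbours, and in CD51+CD140a+ MSCs Ogn (727 TPM) is the highest of the 3.

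Within the Alcam+ populations, SLRP genes varied between libraries in opposite directions. Itga8+ replicate 2 was above both other libraries of its population for 7 of the 10 genes (Dcn, Aspn, Lum, Kera, Omd, Epyc and Ogn) and below both for 3 (Fmod, Prelp and Bgn). Itga8- replicate 3 was above for 6 (Dcn, Bgn, Aspn, Lum, Omd and Epyc), below for 2 (Fmod and Prelp) and between for 2 (Kera and Ogn). Dcn, Lum, Omd, Aspn and Epyc were thus the highest, and Fmod and Prelp the lowest, in both libraries low in Col2a1. Other genes moved too. Tnmd, a tendon marker, was at 5327 CPM in Itga8+ replicate 2 against a mean of 1088 CPM. S100a8, a neutrophil gene, was at 1954 CPM there against 113 CPM. Erythroid markers summed to 1559 CPM in that library, against 155 and 148 CPM in replicates 1 and 3. Bglap, the osteoblast gene for osteocalcin, was at 6983 CPM in Itga8- replicate 3 against 1464 CPM. The part of these transcripts in the SLRP values was not tested.

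**Figure D5:**
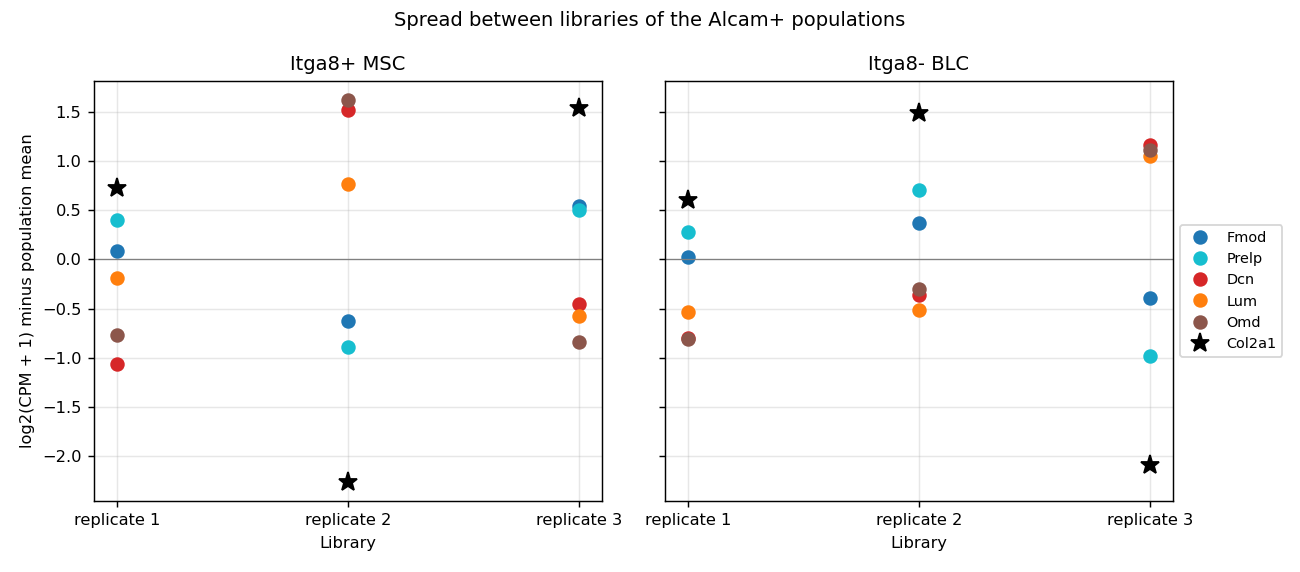
Difference of log2(CPM + 1) from the population mean in each library of Itga8+ MSCs (left) and Itga8- BLCs (right), with 1 point per gene and stars for Col2a1. Itga8+ replicate 2 and Itga8- replicate 3 have Dcn, Lum and Omd above 0 and Fmod, Prelp and Col2a1 below 0.

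The genes whose profiles were most like each member were sought by Pearson's r of log2(CPM + 1) over the 12 libraries, among 10564 genes with a mean of at least 10 CPM in a population. The 12 libraries fall into 4 populations and share them, so r is a description without a test. Dcn was most like Gnpnat1 (0.97) and Uap1 (0.967), enzymes of the synthesis of UDP-N-acetylglucosamine, and Gm17455 (0.965). Fmod was most like Galnt18 (0.994), Wdr54 and Armh4 (0.987 each), Lum like Mustn1 (0.982), Wfdc1 and Tcea3, and Kera like Uap1l1 (0.978), Tnfaip8l3 and Itgbl1. Aspn was most like Meox2 (0.974), a homeobox gene, Cab39l and Gm20444, and Omd like Trmt10c (0.968), Atf1 and Cnih1. Epyc was most like Plaur (0.978), Scrg1 and Slc7a7, and Prelp like its antisense gene Gm15851 (0.98), Msn and Twsg1. Bgn (Actg1, 0.936, Wipi1 and Pofut2) and Ogn (Dubr, 0.946, Casp12 and Etv1) had the weakest closest matches.

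Other genes of the SLRP family and its pathway were taken from lists. Their counts are to be read against the shares of all genes called in the same comparisons, 3.82% against Itga8- BLCs, 21.7% against Sca-1+ and 35.6% against CD51+CD140a+ MSCs. Of 8 other SLRP genes, all tested, 1 was called between Itga8+ MSCs and Itga8- BLCs, Tsku, which was lower in Itga8+ MSCs and kept its call in only 1 of the 12 fits that each left out a library (without Itga8+ replicate 3). Against Sca-1+ MSCs 2 were higher and 2 lower, and against CD51+CD140a+ MSCs 4 were higher and 2 lower. Chad, which encodes the cartilage protein chondroadherin, was counted at 9624 ± 2047 CPM in Itga8+ MSCs, 6591 ± 1162 CPM in Sca-1+ MSCs, 3383 ± 975 CPM in Itga8- BLCs and 27.4 ± 29.1 CPM in CD51+CD140a+ MSCs (SD, n = 3), and like Fmod was called lower in the last than in each of the others. Podn, for podocan, had 85.5 ± 15.99 CPM in CD51+CD140a+ MSCs and 47.0 ± 14.1 CPM in Sca-1+ MSCs, a difference that was not called (edgeR FDR = 0.33), and 8.17 ± 7.002 CPM in Itga8+ MSCs, called lower than both. Its log2 fold change there went from -2.52 to -3.55 against Sca-1+ MSCs and from -3.39 to -4.37 against CD51+CD140a+ MSCs without Itga8+ replicate 3.

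Of 22 enzymes that build the linker, chondroitin and dermatan sulphate chains, 1 (Chst13) was called between the Alcam+ populations, lower in Itga8+ MSCs. In those cells 6 were higher and 1 lower than in Sca-1+ MSCs, and 8 higher and 5 lower than in CD51+CD140a+ MSCs, where 21.7% (12.9% higher and 8.89% lower) and 35.6% (21.2% higher and 14.3% lower) of all genes were called. Chpf, a chondroitin polymerising factor, of Itga8+ MSCs exceeded that of Sca-1+ MSCs (log2 1.96) and of CD51+CD140a+ MSCs (log2 1.93). Both calls held in all 12 fits that each left out a library, but the libraries overlapped. Itga8+ replicates 1 and 3 had 818 and 933 CPM of Chpf, whereas replicate 2 had 171 CPM. The range was 149 to 176 CPM for Sca-1+ and 125 to 229 CPM for CD51+CD140a+ MSCs. Dse, which turns chondroitin into dermatan sulphate, was lower in Itga8+ MSCs relative to CD51+CD140a+ MSCs (log2 -1.39). It was not called when Itga8+ replicate 2 was left out (-0.95), or CD51+CD140a+ replicate 3 (-1.29). Of 8 keratan sulphate enzymes tested, 2 were higher and 1 was lower in Itga8+ MSCs relative to Sca-1+ MSCs. Relative to CD51+CD140a+ MSCs, 1 was higher and 2 were lower, a share close to the 35.6% of all genes.

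Among 11 fibril-forming and fibril-associated collagens, Itga8+ MSCs had 1 higher (Col12a1) and 3 lower (Col1a1, Col1a2 and Col5a2) than Itga8- BLCs, 3 higher and 4 lower than Sca-1+ MSCs, and 5 called against CD51+CD140a+ MSCs, each higher. Col1a2, a chain of type I collagen, had a log2 fold change of -3.99 in Itga8+ MSCs over Itga8- BLCs (-5.12 without Itga8+ replicate 3 and -3.01 without Itga8- replicate 2), while Dcn, whose product binds that collagen, differed between them by log2 -0.40 ± 0.621 (SE, edgeR FDR = 0.907). Col3a1 followed Dcn in being highest in Sca-1+ MSCs, at log2 -4.40 in Itga8+ MSCs against them, or -6.05 without Itga8+ replicate 3. Among 14 growth factors and receptors bound by SLRPs, 1 was higher (Egfr, log2 3.05, or 2.29 without Itga8+ replicate 3) and 1 lower (Bmp2) in Itga8+ MSCs than in Itga8- BLCs, 6 were called against Sca-1+ MSCs, each lower, and 3 were higher and 3 lower than in CD51+CD140a+ MSCs. All genes were called at 21.7% and 35.6% in the last pair of comparisons. Among 9 proteases known to cut SLRPs, Adamts5, Bmp1 and Mmp13 were lower in Itga8+ MSCs than in Itga8- BLCs and Sca-1+ MSCs. Against CD51+CD140a+ MSCs, 1 protease was higher (Mmp2, log2 4.85) and 4 were lower, with Adamts1 at log2 -3.96, or -5.00 without Itga8+ replicate 3.

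The counts of these lists moved with the libraries used. Over the 12 fits that each left out a library, calls between the Alcam+ populations held in 1 for Col5a2 and 4 for Adamts5. They held in 9 each for Col12a1 and Col1a1, in 11 for Bmp1, and in all 12 for Chst13, Col1a2, Egfr, Bmp2 and Mmp13. Against Sca-1+ MSCs the call of Bmp1 held in 5 and that of Bmp2 in 2. The call of Col1a1 in Itga8+ against CD51+CD140a+ MSCs held in 3. Without Itga8+ replicate 2 and Itga8- replicate 3, comparisons of Itga8+ MSCs had 3.62% (Itga8- BLCs), 20.3% (Sca-1+) and 31.4% (CD51+CD140a+) of all genes called. The counts of this fit, which follow, are to be read against these shares. In it, 0 other SLRP genes were called by edgeR between the Alcam+ populations. Against Sca-1+ MSCs 2 were higher and 3 lower, and against CD51+CD140a+ MSCs 4 were higher and 3 lower. Of the enzymes of the linker, chondroitin and dermatan chains, 2 were then higher (Chpf and Dse) and 1 lower in Itga8+ MSCs than in Itga8- BLCs, 9 were higher and 1 lower than in Sca-1+ MSCs, and 11 were higher and 3 lower than in CD51+CD140a+ MSCs, where Dse was no longer called. Of the keratan sulphate enzymes, 1 was higher and 2 were lower than in Sca-1+ MSCs, and 1 was higher and 1 lower than in CD51+CD140a+ MSCs. Of the collagens, 0 were higher and 3 lower than in Itga8- BLCs, 3 higher and 5 lower than in Sca-1+ MSCs, and 7 higher than in CD51+CD140a+ MSCs, Col1a2 and Col3a1 among them. Of the growth factors and receptors, 2 were higher (Egfr and Tgfb3) and 1 lower than in Itga8- BLCs, 1 was higher and 5 were lower than in Sca-1+ MSCs, and 4 were higher and 3 lower than in CD51+CD140a+ MSCs. Of the proteases, 2 were lower than in Itga8- BLCs, 2 lower than in Sca-1+ MSCs, and 1 was higher and 4 were lower than in CD51+CD140a+ MSCs. Without Itga8+ replicate 3 the counts of lower calls against Sca-1+ MSCs were 10 for growth factors and receptors and 6 for collagens. They were 6 for the chondroitin and dermatan sulphate enzymes and 5 for proteases. Higher calls of this fit are not given here. Its share of all genes called was 31.6%, up from 21.7% with every library kept, so calls rose beyond these lists too.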

How the data were processed

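Deposited values were counts of reads per Ensembl gene, which the authors made without normalization, with 1 file per library. The study's methods name TopHat and Bowtie2, whereas the submitters' processing notes list FastQC 0.11.7, Trimmomatic 0.38, HISAT2 2.1.0, SAMtools 1.9, featureCounts 1.6.3 and mm10. Libraries were made with SMART-Seq v4 and Nextera XT. The annotation release and the use of strand are not given in the sources used here.

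Groups came from the sample labels. The 12 libraries were fitted in 1 edgeR 4.0.16 quasi-likelihood model (R 4.3.3, TMM scaling, a minimum of 0.5 CPM in any 1 library, two-sided, Benjamini-Hochberg FDR over 18648 genes), with 6 pairwise contrasts. This test reports no SE. The SE given with a log2 fold change is its absolute value divided by the square root of the F statistic. DESeq2 1.42.0 and limma 3.58.1 were alternatives. TPM used union exon lengths of GENCODE M21 (GRCm38), and promoters came from RefSeq (GRCm38.p6). Python 3.11.15, pandas 2.3.3 and scipy 1.17.1 made the tables. The fits were also run on simulated counts, with changes put into Itga8+ MSCs alone. No simulated library was made to stand apart, so that run cannot show how such libraries affect the calls.

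Genes named are the 10 members, the 3 genes most like each, genes of lists by level or call, and markers. Members and lists were chosen with earlier results of these data known. The alternatives are library totals alone, RLE size factors, limma-trend, DESeq2, 2 other filters, only the populations compared, a replicate block, an FDR under 0.05, each library left out in turn, and, chosen after seeing the data, Itga8+ replicate 2 and Itga8- replicate 3 left out together.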

Additional observations from a re-analysis of the deposited data

How the results depend on the processing

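Of 36 called differences of the 10 genes, 31 kept their call and direction under all 22 alternatives, 5 lost it under at least 1 (given in the report) and 0 turned direction. Of 24 differences that were not called, 7 were called under at least 1 alternative and 6 changed sign, all 6 in values that were not called. Numbers of genes called ranged over the alternatives from 3 to 6 (Itga8+ MSCs against Itga8- BLCs), 3 to 5 (against Sca-1+ MSCs) and 7 to 8 (against CD51+CD140a+ MSCs), while the share of all genes called ranged from 1.59% to 6.45%, 12.8% to 31.6% and 23.5% to 43.0%. Without Itga8+ replicate 2 and Itga8- replicate 3 together they were 6, 4 and 8 (3.62%, 20.3% and 31.4% of all genes). Fmod (1.09) and Omd (-1.52) were added in the first, Fmod (1.08) replaced Epyc (1.01) in the second and Prelp (1.09) was added in the third.

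The sign changed with a library left out for Dcn (Itga8+ against Itga8-, -1.54 to 0.40), Prelp (the same pair, -0.19 to 0.53), Ogn (Itga8+ against Sca-1+, -0.26 to 0.53, and -0.22 with both libraries left out, and against CD51+CD140a+, -0.49 to 0.25) and Lum (Itga8- against Sca-1+, -0.60 to 0.34). For Lum it was also -0.07 with limma-trend, -0.11 with library totals and -0.60 with both left out, and for Aspn (Itga8- against CD51+CD140a+) -0.07 with library totals. The cause was not tested. Scaling by library totals moved the median over all genes (log2 scale) by 0.044 to 0.328 over the 6 comparisons.

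The labels number the replicates 1 to 3 in each population, but same-numbered libraries did not deviate together. Of 18 same-numbered pairs 5 had r over 0.1 (range -0.736 to 0.342), and 5 of 12 libraries correlated best with their own number. With the replicate block 3, 4 and 7 of the 10 genes were called in the comparisons of Itga8+ MSCs, and 7 in each other comparison, with 2.32%, 15.4%, 29.2%, 22.4%, 30.9% and 17.4% of all genes called. Over all genes, the count in Itga8+ MSCs against Itga8- BLCs was 712, and 433 with the block, 276 with only these populations, 464 at an FDR under 0.05, 433 without Itga8- replicate 3 and 1203 with DESeq2. Precision is limited by 3 libraries per population.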
